A study of Mus musculus with 8 samples.

Results

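Liver RNA was sequenced from 4 C57BL/6 mice labelled HuR WT and 4 C57BL/6 mice labelled HuR KO, with 1 library per animal. Elavl1 encodes HuR, a protein that binds mRNA, and the comparison is of liver RNA between genotypes. The deleted exons, the cells in which they were deleted, and the age, sex and feeding state of the mice are not given in the labels used here. The genes described are 37 genes of glycolysis, gluconeogenesis, glycogen metabolism and insulin signalling. They were taken as a named list and matched by symbol to the Ensembl identifiers of the count table. All 37 matched 1 row each and all 37 passed the filter on low counts, out of 45706 gene rows and 14645 genes tested.

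The liver keeps blood glucose steady by switching between uptake and release. After a meal glucose enters hepatocytes, is phosphorylated, and is stored as glycogen or passed down glycolysis to pyruvate. Between meals glycogen is broken down and new glucose is made from lactate and amino acids through pyruvate carboxylase, phosphoenolpyruvate carboxykinase and fructose-1,6-bisphosphatase, and glucose-6-phosphatase releases it. Insulin, acting through its receptor, the IRS adaptor proteins and the kinase AKT2, excludes the transcription factor FOXO1 from the nucleus and so lowers transcription of the gluconeogenic genes.

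The libraries held 18649618 to 31249286 counts in genes. Elavl1 itself was counted at 32.7, 45.7, 42.9 and 46.6 CPM (counts scaled to the size of the library) in WT replicates 1 to 4 and at 49.4, 56.0, 49.1 and 45.6 CPM in KO replicates 1 to 4. The gene count was thus not lower in the livers labelled KO (log2 fold change 0.25, SE 0.11, edgeR adjusted p = 0.258), and without the deleted part being known it cannot check the labels. The animal numbers in the titles form a series from 98 to 100 (KO replicates 3 and 4 with WT replicate 3) and a series of 4-digit numbers (the other 5 livers), and what separates them is not stated. The 10 hepatocyte markers had counts in all libraries, at a summed 131334 to 146668 CPM in WT and 118350 to 142706 CPM in KO. The summed level of the 12 bile duct cell markers was 67.6 to 92.0 CPM in WT and 194 to 291 CPM in KO, with 9 of the 11 tested called higher and none at 0 in all libraries. Of 8 stellate cell and fibroblast markers 2 were called higher, at a summed 402 to 435 CPM in WT and 474 to 554 CPM in KO. None of the 9 macrophage, 8 endothelial cell, 6 lymphocyte, 5 neutrophil or 5 red blood cell markers tested was called. The 6 markers each of skeletal muscle and exocrine pancreas summed to at most 0.727 and 0.364 CPM, with Ckm, Myh1, Cela3b, Ctrb1 and Cel at 0 in all libraries. In these bulk samples, fewer cells of a type and less RNA per cell cannot be told apart.

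Levels of the 37 genes differed little between the livers labelled KO and WT. Gene coordinates below are those deposited with the counts, of Ensembl 81 on GRCm38. By edgeR's quasi-likelihood test with Benjamini-Hochberg adjustment over all genes, 0 of the 37 passed an adjusted p of 0.05, against 3.69% of all genes tested (2.32% higher and 1.37% lower). DESeq2 called 0 of the 37 and limma-voom 0, against 7.57% and 3.45% of all genes. At an unadjusted p under 0.05 there were 3, Eno1, Gpi1 and Irs1, which is 8.11% of the list against 18.0% of all genes. By role, the median log2 fold change was −0.0059 for glucose entry, −0.09 for upper glycolysis, −0.16 for lower glycolysis, 0.03 for gluconeogenesis, −0.03 for glycogen and −0.04 for insulin signalling. The median of the list was −0.01, and over all genes tested it was −0.0046, with 16 of the 37 above 0 and 21 below. The largest fold change was 1.43, for Hk3. Groups of 4 livers that do not overlap were found for 1 of the 37, Pfkl, whereas 11.2% of all genes had such groups (6.19% higher in KO). The unadjusted 95% interval lay within 1.5-fold in either direction for 25 of the 37 and within 2-fold for 35, the exceptions to the latter being Hk3 and Irs2. On simulated counts for the same comparison the test recovered 28 of 50 genes changed 1.5-fold and 37 of 50 changed 2-fold, so a change of 1.5-fold in one of these genes could have been missed. The simulated spread followed expression level and not each gene's own spread. Recovery for the genes that vary most between livers was thus not measured.

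**Figure D1:**
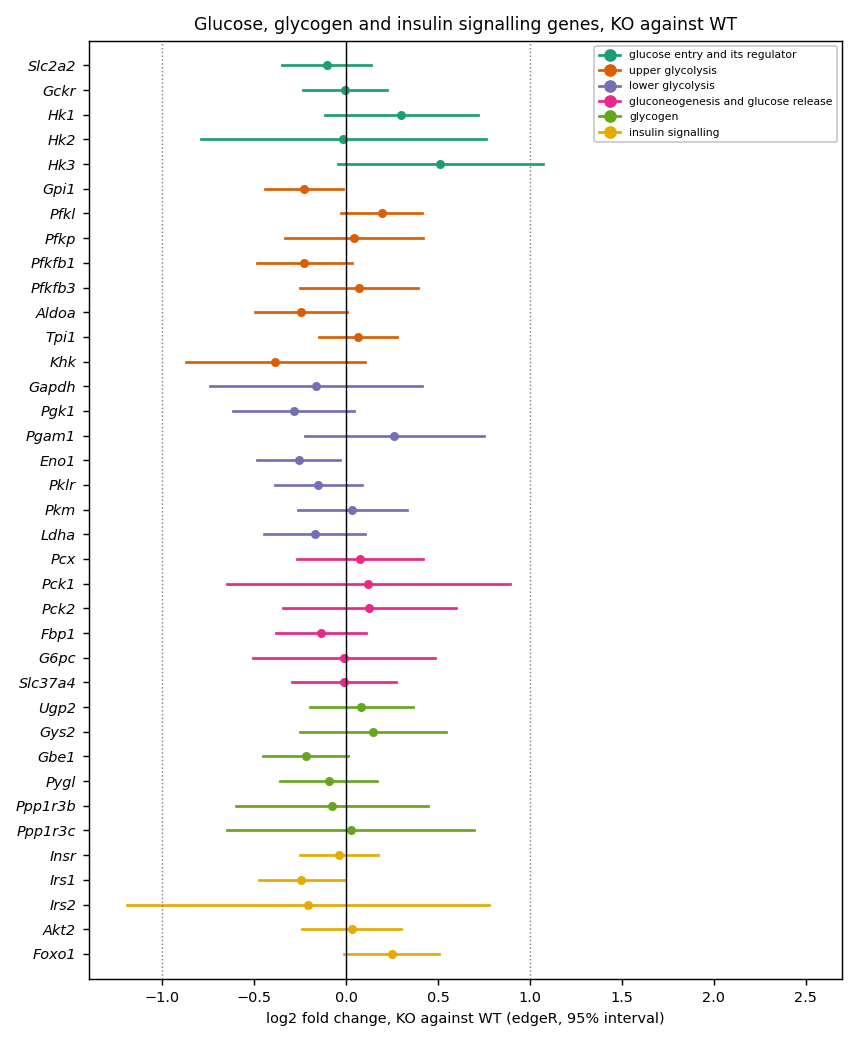
Log2 fold change of each of the 37 genes between the livers labelled KO and WT (x axis), with its unadjusted 95% interval as a line, coloured by role. Dotted lines mark a 2-fold change; only the intervals of Hk3 and Irs2 reach past them.

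Promoters are shown for 3 genes with a single RefSeq start site, none of them called over all livers. Irs1 and Gpi1 had an unadjusted p under 0.05, and Khk was called only without WT replicate 3 and was chosen after its values were seen. E boxes and cAMP response elements were marked because factors of carbohydrate and hormone response are known to bind there. Each promoter shown is the 250 bases before the start on GRCm38.p6, 5′ to 3′ on the gene's strand, from the RefSeq promoter table. Capitals mark matches, on either strand, to CACGTG (E box) and to TGACG or its reverse complement CGTCA (the core of the cAMP response element). The Irs1 window is chr1:82291440-82291689 (minus strand), the Khk window chr5:30921309-30921558 (plus strand) and the Gpi1 window chr7:34230337-34230586 (minus strand).
Irs1: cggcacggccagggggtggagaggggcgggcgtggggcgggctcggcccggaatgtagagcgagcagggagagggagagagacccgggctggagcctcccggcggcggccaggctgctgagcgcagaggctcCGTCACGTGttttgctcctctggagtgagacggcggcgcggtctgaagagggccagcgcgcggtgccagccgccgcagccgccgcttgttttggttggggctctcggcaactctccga
Khk: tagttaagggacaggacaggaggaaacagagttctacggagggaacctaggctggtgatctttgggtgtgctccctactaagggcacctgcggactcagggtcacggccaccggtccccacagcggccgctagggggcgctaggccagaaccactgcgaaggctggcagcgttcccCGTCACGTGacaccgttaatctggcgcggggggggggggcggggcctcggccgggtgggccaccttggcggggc
Gpi1: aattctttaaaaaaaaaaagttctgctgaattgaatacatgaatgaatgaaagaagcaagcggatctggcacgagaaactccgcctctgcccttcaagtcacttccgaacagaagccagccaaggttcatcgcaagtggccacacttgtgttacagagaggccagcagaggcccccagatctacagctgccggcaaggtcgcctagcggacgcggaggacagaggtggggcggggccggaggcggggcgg
In Irs1 the E box begins at −115 and in Khk at −71, counted from the RefSeq start site. In both it overlaps a CGTCA, which begins at −118 and −74. The Khk gene as counted begins at 30921431, within its window, and both Khk matches lie past that position. The Gpi1 window holds neither. Eno1, with the smallest p of the list, and Aldoa each have several RefSeq windows and are not shown. None of those windows held either match. RefSeq windows were found for 34 of the 37 genes (not Gys2, Ppp1r3b and Insr), 53 windows in all, of which windows of the same gene can overlap. An E box stood in 7 of the 53 (13.2%, against 6.02% of all 32851 windows), those of Irs1, Irs2, Khk, Ldha, Pcx, Pfkfb3 and Ppp1r3c. The cAMP core stood in 13 of the 53 (24.5% against 17.8%), TATAAA in 4 (7.55% against 12.4%) and the forkhead letters TGTTTAC in 0 (3.17% of all windows). These are matches of letters, not binding sites.

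Slc2a2 and Gckr stand at the entry of glucose into the pathway, as the main glucose transporter of hepatocytes and the protein that holds the liver's hexokinase inactive in the nucleus. Slc2a2 (chromosome 3) was at 434 ± 53.7 CPM in WT and 403 ± 32.6 CPM in KO, and Gckr (chromosome 5) at 247 ± 11.9 and 246 ± 32.6 CPM (SD, n = 4 each). For both genes the groups overlapped, and the Gckr interval ran from 0.85-fold to 1.17-fold.

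The other hexokinases, which phosphorylate glucose in most tissues but are scarce in hepatocytes, were all low. Hk1 was at 5.98, 4.23, 5.12 and 4.33 CPM in WT replicates 1 to 4 and at 5.34, 6.17, 4.93 and 7.82 CPM in KO replicates 1 to 4. Hk2 was at 2.30, 3.12, 3.30 and 0.887 CPM in WT and at 2.28, 1.46, 2.53 and 3.38 CPM in KO. Hk3, the hexokinase typical of myeloid cells, was at 3.64, 4.11, 4.39 and 2.50 CPM in WT and at 4.41, 3.22, 5.94 and 7.48 CPM in KO. The groups overlapped for each of the 3 genes, and the higher mean of Hk3 in KO rested on KO replicates 3 and 4. Its log2 fold change was 0.51 (SE 0.26, edgeR adjusted p = 0.322), with 0.15 within the 4-digit series, and that of Hk1 was 0.30 (SE 0.19, edgeR adjusted p = 0.456). The 9 macrophage markers summed to 389.5 to 467 CPM in WT and 402 to 527 CPM in KO, highest in KO replicate 3, and their part in the Hk3 level was not tested. Hk2 had only 16 to 100 counts per library and an interval from 0.579-fold to 1.69-fold.

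In upper glycolysis, Gpi1 (ENSMUSG00000036427, chr7:34202122-34230289, minus strand), which interconverts glucose 6-phosphate and fructose 6-phosphate, was at 139, 139.5, 107 and 124 CPM in WT replicates 1 to 4 and at 112, 107, 114 and 102 CPM in KO. WT replicate 3 lay among the KO values and the other WT livers above them. Its log2 fold change was −0.23 (SE 0.10, edgeR adjusted p = 0.240). Aldoa (chromosome 7), the aldolase of muscle and most other tissues, had the same pattern, at 104, 108, 83.3 and 126 CPM in WT and 90.8, 99.3, 83.1 and 81.9 CPM in KO (log2 fold change −0.24, SE 0.12, edgeR adjusted p = 0.289).

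Phosphofructokinase commits fructose 6-phosphate to glycolysis. Pfkl (chromosome 10), its liver subunit, was at 27.8, 23.4, 28.3 and 28.8 CPM in WT and at 34.6, 29.3, 30.9 and 28.9 CPM in KO. The lowest KO liver, at 28.95 CPM, lay just above the highest WT liver, at 28.84 CPM, and with a log2 fold change of 0.19 (SE 0.10, edgeR adjusted p = 0.348) the gene was not called. Pfkp, the platelet-type subunit, was at 6.09, 5.34, 4.56 and 6.10 CPM in WT and 4.64, 5.86, 5.71 and 6.50 CPM in KO. Per length, Pfkl stood above Pfkp in every liver, by a ratio of 9.37 to 13.2 in WT and 9.51 to 15.9 in KO.

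Pfkfb1 and Pfkfb3 encode the bifunctional enzymes that make and remove fructose 2,6-bisphosphate, the activator of phosphofructokinase, Pfkfb1 being the liver form. Pfkfb1 (chromosome X) was at 31.6, 43.9, 38.6 and 44.6 CPM in WT and at 31.0, 32.1, 39.9 and 32.4 CPM in KO, where KO replicate 3 stood apart from the other 3 KO livers (log2 fold change −0.23, SE 0.12, edgeR adjusted p = 0.343). Pfkfb3 was at 8.36 ± 1.35 and 8.78 ± 0.815 CPM, and Tpi1, triose phosphate isomerase, at 260.1 ± 27.7 and 272 ± 12.1 CPM in WT and KO (SD, n = 4 each). Neither mean differed by more than the spread between livers.

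Khk (ENSMUSG00000029162, chr5:30921431-30931248, plus strand) encodes ketohexokinase, which phosphorylates fructose. It was at 469.6, 388, 206 and 377 CPM in WT replicates 1 to 4 and at 302, 309, 262 and 229 CPM in KO. WT replicate 3 was the lowest of all 8 livers, and the other WT livers lay above every KO liver. The log2 fold change was −0.39 (SE 0.22, edgeR adjusted p = 0.398) over all livers. Without WT replicate 3 it was −0.58 and the gene was called lower (edgeR adjusted p = 0.00961), and Eno1 and Aldoa were called lower as well, at −0.35 and −0.34 (edgeR adjusted p = 0.0286 and 0.0488). That setting called 3.57% of all genes lower, and it leaves only KO livers among the animals numbered 98 to 100. With the animal number series as covariate and all 8 livers, Khk was at −0.19, Eno1 at −0.19 and Aldoa at −0.16. None of them was called in that fit (edgeR adjusted p = 0.494, 0.245 and 0.364). Within the animals with 4-digit numbers the Khk difference was −0.43. Among those numbered 98 to 100, with a single WT liver, it was 0.25.

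In lower glycolysis, Eno1 (ENSMUSG00000063524, chr4:150236721-150248879, plus strand), enolase, had the smallest p of the list. It was at 111, 112, 84.2 and 111 CPM in WT replicates 1 to 4 and at 87.7, 96.2, 79.9 and 85.3 CPM in KO. WT replicate 3 alone of the WT livers lay in the KO range. The log2 fold change was −0.26 (SE 0.11, edgeR adjusted p = 0.209), with −0.27 in the 4-digit series and −0.03 in the other, which has a single WT liver. Pgk1 (chromosome X), phosphoglycerate kinase, was at 21.4, 20.3, 14.2 and 16.6 CPM in WT and 18.3, 14.5, 12.2 and 14.4 CPM in KO (log2 fold change −0.29, SE 0.15, edgeR adjusted p = 0.352).

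Pyruvate kinase has a liver form, Pklr (chromosome 3), and a form of most other tissues, Pkm (chromosome 9). Pklr was at 112, 87.8, 90.8 and 79.2 CPM in WT and at 79.3, 76.4, 94.6 and 82.3 CPM in KO. Pkm was at 18.1, 20.1, 12.4 and 15.9 CPM in WT and at 16.3, 16.4, 18.0 and 17.3 CPM in KO. Both sets of groups overlapped, with log2 fold changes of −0.15 (SE 0.11) and 0.03 (SE 0.14) over all livers. Within the 4-digit series Pkm differed by −0.14, and among the animals numbered 98 to 100, with a single WT liver, by 0.50. Per length, Pklr exceeded Pkm 3.52-fold to 5.87-fold in WT and 3.74-fold to 4.22-fold in KO. Pkm may be undercounted, as set out below, which would raise this ratio.

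Ldha, lactate dehydrogenase A, was at 694 ± 104 CPM in WT and 616 ± 79.6 CPM in KO, the WT group reaching from 618 to 843 CPM (SD, n = 4 each). Gapdh was at 11.5 ± 3.95 and 10.2 ± 2.54 CPM and Pgam1, phosphoglycerate mutase, at 5.57 ± 1.86 and 6.63 ± 0.929 CPM. These levels are uncertain. Gapdh, Pgk1, Pgam1, Aldoa, Eno1, Ldha, Tpi1 and Pkm are known to have processed pseudogenes or close copies, and reads that map to several places were not counted, so the counts can cover only part of their transcripts.

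Among the genes of glucose production, Pck1 (chromosome 2), the cytosolic phosphoenolpyruvate carboxykinase whose transcription is known to rise on fasting, had the highest level of the list per length among the reads counted, with a mean of 714 RPKM in WT and 776 RPKM in KO (RPKM, which is CPM divided by exon length in kilobases). It was at 2052, 2699, 3709.9 and 1331 CPM in WT replicates 1 to 4 and at 2556, 1652, 3131 and 3304 CPM in KO. The livers of each genotype covered much the same wide range, and the interval reached from 0.638-fold to 1.85-fold (log2 fold change 0.12, SE 0.33, edgeR adjusted p = 0.901). Pck2, the mitochondrial form, was at 5.18, 3.08, 3.14 and 4.44 CPM in WT and 3.44, 4.44, 4.51 and 4.85 CPM in KO. Per length Pck1 exceeded it at least 297-fold in every liver.

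G6pc (chromosome 11), the catalytic subunit of glucose-6-phosphatase, was at 1015, 575, 743 and 506 CPM in WT and at 537, 669.7, 907 and 702 CPM in KO, and the groups covered nearly the same range. Its log2 fold change was −0.01 (SE 0.22). Slc37a4 (chromosome 9), the transporter that feeds glucose 6-phosphate to that enzyme, was at 251, 231, 168 and 258 CPM in WT and at 242, 249, 201 and 208 CPM in KO. Its log2 fold change was also −0.01 (SE 0.13), and the lowest 3 livers were those of the animals numbered 98 to 100. Fbp1, fructose-1,6-bisphosphatase, was at 987 ± 69.8 CPM in WT and 897 ± 103 CPM in KO, and Pcx, pyruvate carboxylase, at 729 ± 160.1 and 768 ± 135 CPM (SD, n = 4 each). For each of these 6 genes of glucose production the groups overlapped.

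**Figure D2:**
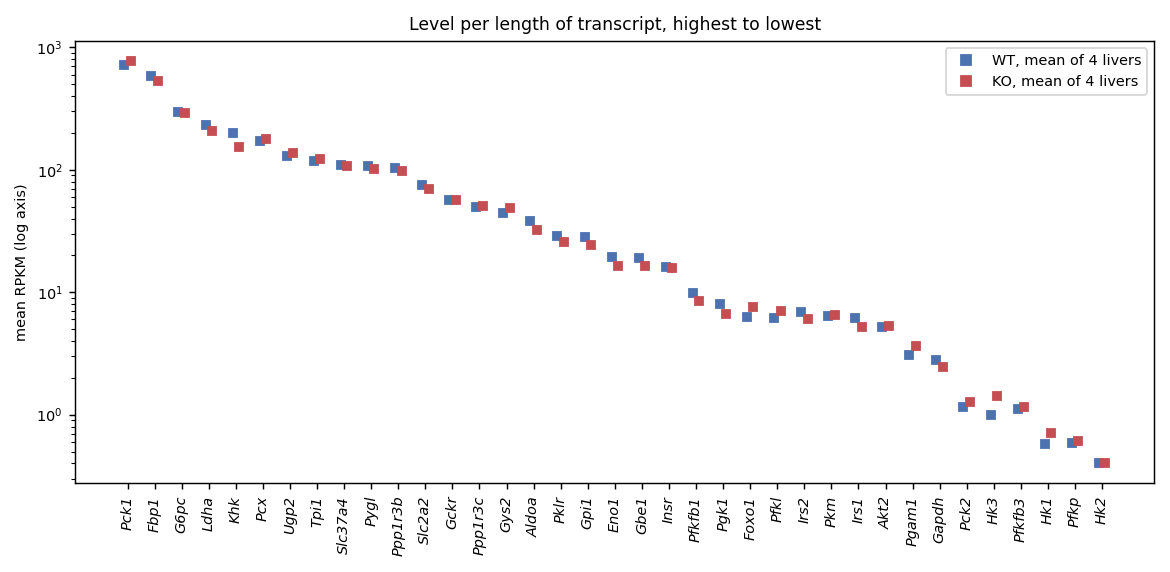
Mean level of each of the 37 genes per annotated exon length of the gene (RPKM, log axis) in the livers labelled WT and KO, from Pck1 at the top to Hk2 at the bottom. Genes with close copies can be undercounted. The WT and KO means of each gene lie close together, the widest gap being that of Hk3 at 0.994 and 1.43 RPKM.

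Glycogen is built from UDP-glucose by glycogen synthase and the branching enzyme and broken down by glycogen phosphorylase. Gys2 (ENSMUSG00000030244, chr6:142422613-142473109, minus strand), the liver glycogen synthase, was at 94.9, 99.8, 163 and 111 CPM in WT and at 120.5, 109, 125 and 165 CPM in KO (log2 fold change 0.15, SE 0.18, edgeR adjusted p = 0.730). Pygl (chromosome 12), the liver phosphorylase, was at 502, 388, 329 and 436 CPM in WT and at 367, 382, 418 and 384 CPM in KO (−0.09, SE 0.12). Gbe1 (chromosome 16), the branching enzyme, was at 116, 104, 87.9 and 96.9 CPM in WT and at 72.1, 91.6, 91.4 and 92.1 CPM in KO (−0.22, SE 0.11, edgeR adjusted p = 0.304). All 3 sets of groups overlapped. Ugp2, which makes UDP-glucose, was at 399 ± 49.8 and 423 ± 65.8 CPM (SD, n = 4 each).

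Ppp1r3b (ENSMUSG00000046794, chr8:35375741-35388124, plus strand) and Ppp1r3c (chromosome 19) encode subunits that bring protein phosphatase 1 to glycogen, where it activates glycogen synthase. Ppp1r3b was at 483, 485, 266 and 499 CPM in WT replicates 1 to 4 and at 455, 538, 348 and 300.3 CPM in KO. Ppp1r3c was at 172, 114, 93.1 and 162 CPM in WT and at 131, 209, 95.9 and 115 CPM in KO. The 3 animals numbered 98 to 100 had the lowest Ppp1r3b of all livers, and the lowest 2 for Ppp1r3c were WT and KO replicate 3. Neither gene separated the genotypes (log2 fold changes −0.08, SE 0.23, and 0.03, SE 0.29). Per length Ppp1r3b exceeded Ppp1r3c 1.81-fold to 2.75-fold in WT and 1.66-fold to 2.35-fold in KO.

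In insulin signalling, Insr (chromosome 8), the receptor, was at 157, 174, 156 and 134 CPM in WT and at 164, 145, 141 and 155 CPM in KO (log2 fold change −0.04, SE 0.10). Irs1 (ENSMUSG00000055980, chr1:82233101-82291416, minus strand), an adaptor phosphorylated by the receptor, was at 59.0, 49.4, 66.2 and 52.0 CPM in WT and at 44.2, 46.8, 54.7 and 45.8 CPM in KO. Of the KO livers only replicate 3 lay within the WT range. The log2 fold change was −0.24 (SE 0.11, edgeR adjusted p = 0.246), with −0.23 in the 4-digit series and −0.40 in the other, which has a single WT liver.

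Irs2 (chromosome 8), the other adaptor of hepatocytes, whose transcription is known to be held down by insulin, was at 31.7, 18.5, 43.2 and 18.3 CPM in WT and at 21.9, 12.1, 35.4 and 27.9 CPM in KO. It varied more between livers of a genotype than Irs1 and its interval was the widest of the list, from 0.437-fold to 1.72-fold. Per length the ratio of Irs1 to Irs2 ranged from 0.675 to 1.25 in WT and from 0.681 to 1.71 in KO. Irs1 had the higher CPM in every liver, so this order rests on the annotated exon lengths (Irs1 9144 bp, Irs2 4024 bp). Akt2 (chromosome 7) was at 29.6, 31.4, 44.7 and 41.4 CPM in WT and at 39.1, 37.5, 35.6 and 37.8 CPM in KO (log2 fold change 0.03, SE 0.12). Foxo1 (chromosome 3) was at 48.2, 69.7, 53.4 and 47.5 CPM in WT and at 70.8, 69.5, 59.94 and 59.93 CPM in KO. WT replicate 2 lay among the KO values and the other WT livers below them (log2 fold change 0.25, SE 0.12, edgeR adjusted p = 0.297).

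**Figure D3:**
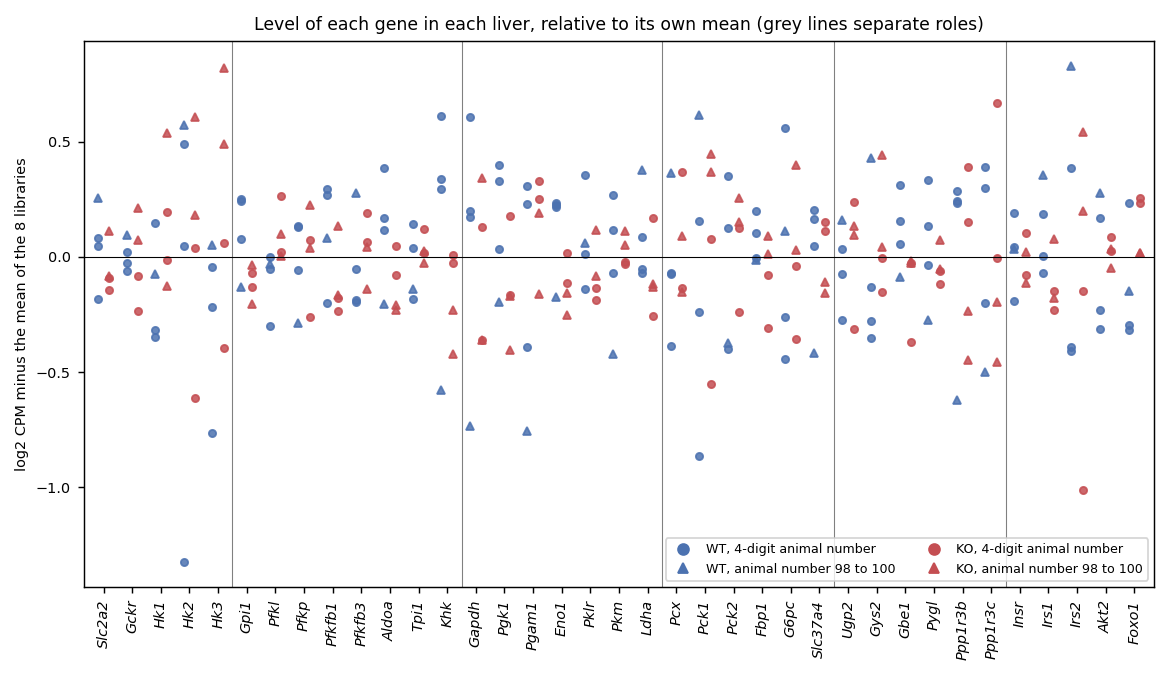
Log2 CPM of each gene in each of the 8 livers minus that gene's mean (y axis), by genotype (blue WT, red KO) and animal number (triangles 98 to 100, circles 4-digit), with grey lines between roles. Blue and red overlap for 36 of the 37 genes, and Hk2, Irs2 and Pck1 spread widest.

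The 37 genes differed in how much livers of a genotype varied. The within-group SD of log2 CPM had a median of 0.21 over the list and 0.23 over all genes tested. It was smallest for Tpi1, at 0.12, and largest for Hk2 at 0.68, Irs2 at 0.64 and Pck1 at 0.55. For 8 of the 37 it exceeded 0.387, the upper quartile of all genes: Hk2, Irs2, Pck1, Gapdh, Ppp1r3c, Hk3, Ppp1r3b and Khk. Hk2 and Hk3 had at most 100 and 199 counts per library, whereas Pck1 had 23995 or more in each.

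Some of the 37 genes differed with the animal numbers. With genotype in the model, edgeR called 4 of the 37 genes between the animals numbered 98 to 100 and those with 4-digit numbers, which is 10.8% of the list against 2.41% of all genes tested. Of the 4, 1 was higher and 3 lower in the animals numbered 98 to 100, against 1.43% and 0.976% of all genes. The comparison was added after the values had been seen. Ppp1r3b was 1.65-fold lower in the animals numbered 98 to 100 (log2 difference −0.73, SE 0.11, edgeR adjusted p = 0.00213), at a mean of 305 against 492 CPM. Khk was 1.51-fold lower (−0.60, SE 0.14, edgeR adjusted p = 0.0407) and Slc37a4 1.31-fold lower (−0.39, SE 0.10, edgeR adjusted p = 0.0436). Gys2 was 1.40-fold higher (0.48, SE 0.11, edgeR adjusted p = 0.0286). For each of these 4 every liver of one series lay beyond every liver of the other, as it did for 9 of the 37 in all and for 11.1% of all genes.

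An unadjusted p under 0.05 between the series was found for 14 of the 37 (37.8% against 16.5% of all genes), Pck1, Irs2 and Ppp1r3c among them. Pck1 had a mean of 3382 CPM in the animals numbered 98 to 100 and 2058 CPM in the others (log2 difference 0.73, SE 0.23, edgeR adjusted p = 0.164). Irs2 had means of 35.5 and 20.5 CPM (0.90, SE 0.26, edgeR adjusted p = 0.137) and Ppp1r3c of 101 and 158 CPM (−0.69, SE 0.18, edgeR adjusted p = 0.101). These 3 were not called in that fit. Irs2 and Ppp1r3c were called by DESeq2 and by edgeR without the low-count filter. With the filter, edgeR called Pck1 without WT replicate 4 (adjusted p = 0.0428), Irs2 without WT replicate 1 (0.0223) and Ppp1r3c without WT replicate 2 (0.0313) or KO replicate 1 (0.0182). The series from 98 to 100 holds a single WT liver, and without WT replicate 3 none of the 37 was called between the series, with Ppp1r3b at −0.62 (edgeR adjusted p = 0.0650), Khk at −0.31, Slc37a4 at −0.27 and Gys2 at 0.33. Only Ppp1r3b was called without each other library. Leaving out either of WT replicates 1 and 2 or of KO replicates 2 and 4 ended the call of Gys2. Leaving out either of WT replicates 2 and 4 or of KO replicates 2 and 4 ended that of Khk, and Slc37a4 kept its call only when KO replicate 1 was left out (edgeR adjusted p of the lost calls from 0.0503 to 0.142). Feeding state, cage and day of collection are not given in the sources used here and cannot be told apart from the series.

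**Figure D4:**
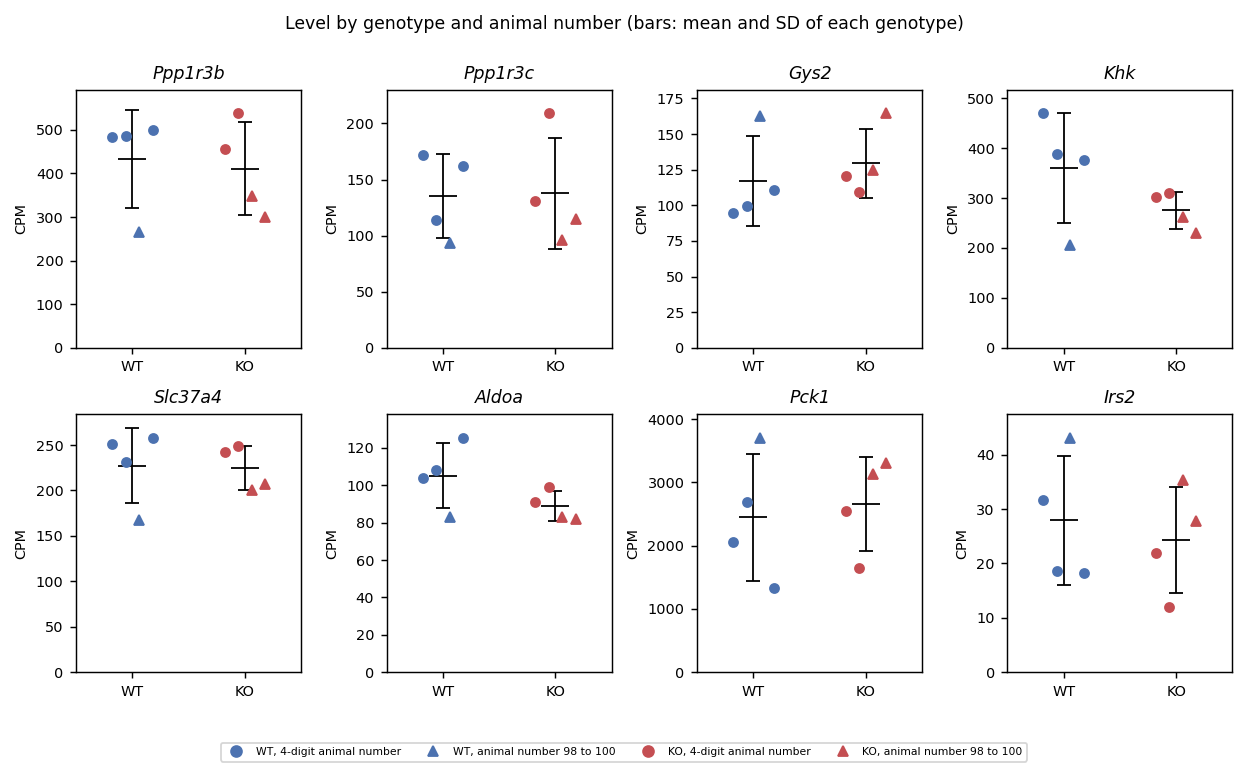
CPM of 8 of the genes in each liver by genotype (x axis) and animal number (triangles 98 to 100, circles 4-digit), with the mean and SD of the 4 livers of each genotype as bars. The triangles lie below the circles for Ppp1r3b, Khk, Slc37a4 and Aldoa, at a mean of 305 against 492 CPM for Ppp1r3b. They lie above the circles for Gys2 and Pck1, for Gys2 by little in KO replicate 3 (125 CPM, with KO replicate 1 at 120.5 CPM).

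Beyond the 37, a list of 110 other genes of these pathways was examined, of which 106 passed the low-count filter. Of these 2 rose, 3 fell and 101 were not called, which is 4.72% against 3.69% of all genes, with a median log2 fold change of 0.00058. The 2 that rose were among 24 genes tested of insulin and glucagon signalling. Of the 3 that fell, 2 were among 12 of pyruvate dehydrogenase and its kinases and 1 among 16 of pentose phosphate and other sugars. None of 11 genes of glycolysis and lactate transport, 11 of gluconeogenic substrates, 19 of glycogen metabolism or 13 transcriptional regulators was called.

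Grb10 (ENSMUSG00000020176, chr11:11930508-12038683, minus strand), an imprinted gene whose adaptor protein binds and inhibits the insulin and IGF1 receptors, was at 6.89, 7.40, 6.94 and 8.32 CPM in WT replicates 1 to 4 and at 13.0, 14.3, 13.2 and 17.9 CPM in KO. Every KO liver lay above every WT liver. It rose 1.98-fold (log2 fold change 0.99, SE 0.14, edgeR adjusted p = 0.00194), and its call was kept without each of the 8 libraries, at adjusted p from 0.00216 to 0.00992. Within the 4-digit series the genotypes differed by 0.86 and within the other, which has a single WT liver, by 1.14. Igf1r (chromosome 7), the IGF1 receptor, which is scarce in adult hepatocytes, rose 2.05-fold from a low level, at 1.64, 1.52, 2.38 and 1.61 CPM in WT and 4.30, 3.33, 2.72 and 4.44 CPM in KO (1.04, SE 0.25, edgeR adjusted p = 0.0362). The Igf1r call was lost without any single library other than WT replicate 3 and KO replicate 3, at adjusted p from 0.0544 to 0.119, with limma-voom at 0.0508 and with a replicate block at 0.0646. In the same livers 9 of 11 bile duct cell markers and 2 of 8 stellate cell and fibroblast markers were called higher, with summed levels that did not overlap between genotypes, and their part in the levels of Grb10 and Igf1r was not tested.

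Tkt (ENSMUSG00000021957, chr14:30548359-30574722, plus strand) encodes transketolase of the pentose phosphate pathway. It was at 119, 133, 84.3 and 94.4 CPM in WT and at 66.7, 62.2, 73.7 and 65.4 CPM in KO, with no overlap, and fell 1.61-fold (log2 fold change −0.69, SE 0.13, edgeR adjusted p = 0.0102). Its call was kept without each of the 8 libraries, at adjusted p from 0.00074 to 0.0404. Within the 4-digit series the genotypes differed by −0.84 and within the other, which has a single WT liver, by −0.28.

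Pdk1 (chromosome 2), a kinase that switches off pyruvate dehydrogenase, was at 109.7, 124, 85.4 and 69.4 CPM in WT and at 58.9, 59.9, 65.6 and 58.8 CPM in KO, and fell 1.60-fold (−0.68, SE 0.15, edgeR adjusted p = 0.0276). Dlat (chromosome 9), the acetyltransferase subunit of pyruvate dehydrogenase, was at 63.6, 70.2, 60.3 and 59.4 CPM in WT and at 52.5, 50.1, 44.0 and 46.4 CPM in KO, and fell 1.31-fold (−0.39, SE 0.09, edgeR adjusted p = 0.0287). Both sets of groups were apart in all 8 livers. Of the 8 libraries, leaving out WT replicate 3 or 4 kept the Pdk1 call, and leaving out either of these or of KO replicates 1 and 2 kept the Dlat call, with adjusted p from 0.0632 to 0.11 where lost. With the number series in the model Pdk1 was at adjusted p = 0.0643. Within the 4-digit series neither gene was called, Pdk1 at −0.76 (edgeR adjusted p = 0.155) and Dlat at −0.33 (edgeR adjusted p = 0.186).

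**Figure D5:**
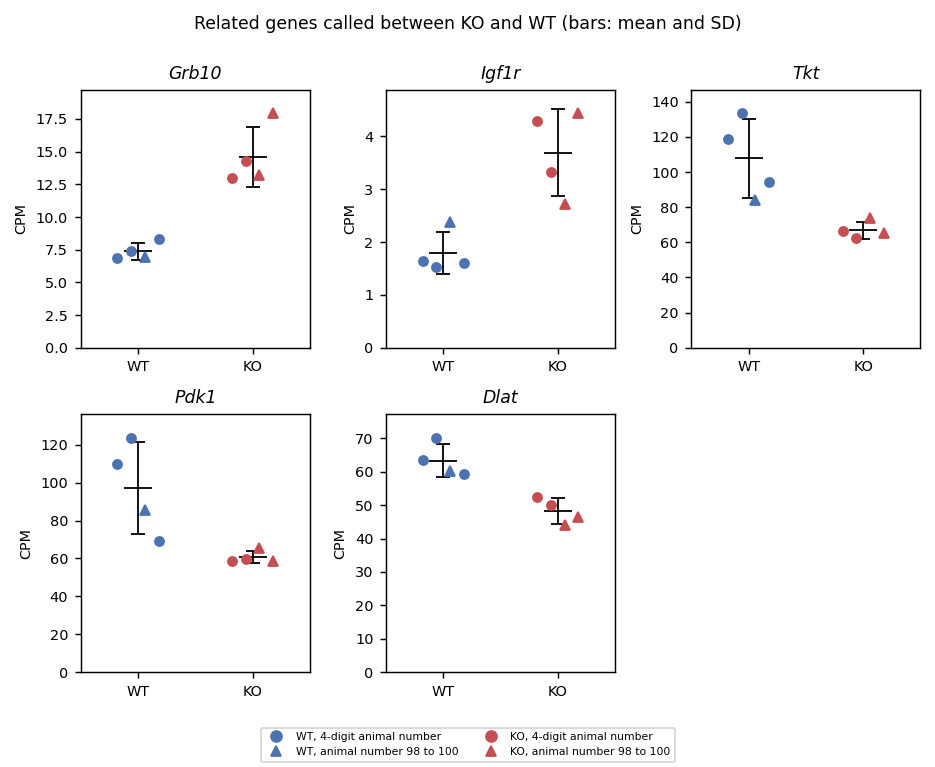
CPM of the 5 related genes called between the genotypes, in each liver (triangles animal numbers 98 to 100, circles 4-digit), with the mean and SD of 4 livers as bars. Grb10 and Igf1r lie higher in every KO liver, from 2.72 CPM against at most 2.38 CPM for Igf1r, and Tkt, Pdk1 and Dlat lie lower.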

How the data were processed

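Each library was liver RNA of 1 mouse, prepared with a strand-specific kit per the labels' protocols. The authors deposited whole-number counts per Ensembl 81 gene on mm10, made with featureCounts 1.5.1 (reverse-stranded, minimum mapping quality 1, without the option to count reads that map to several places) per the file header. GSNAP and bcl2fastq 2.19.1 are named in the submitters' processing notes. The 92 spike-in rows held no counts and were left out.

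Counts were fitted with edgeR 4.0.16 (R 4.3.3): filterByExpr with a minimum count of 10, TMM scaling and a robust quasi-likelihood test, adjusted by Benjamini-Hochberg over 14645 genes, with 0.05 as the threshold for a call. SEs derive from the F statistic, and 95% intervals are unadjusted. CPM uses TMM-scaled totals, and RPKM divides it by the annotated exon length of the gene. The size of every ratio per length thus depends on that annotation. Genotype differences within the 4-digit series come from an edgeR fit of those livers alone. Those within the series from 98 to 100 are untested differences of mean log2 CPM, against a single WT liver. Total counts limit precision most for genes under 10 CPM, 7 of the 37. DESeq2 1.42.0, limma 3.58.1, other scalings and filters, a replicate block, the number series and each library left out were alternatives. The scripts were tested on simulated data.

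Genes printed with every liver's value were the 12 smallest p-values of the list plus fixed sets of isozymes, transporters, phosphatase subunits and signalling genes, and the related genes called. The 37 genes and the other lists were chosen with earlier results of these data known. No 2 libraries of a group agreed within sampling noise. The p-values set each difference against the spread between these animals only.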

Additional observations from a re-analysis of the deposited data

Results flagged for a closer look

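In 6 of 84 groups of 4 livers, 1 liver stood farther from the others than Dixon's 95% critical value allows. Chance flags about 1 in 20 groups, here about 4.2. In the WT group, replicate 3 stood apart for Eno1 (84.2 CPM, low), Ppp1r3b (266 CPM, low) and Igf1r (2.38 CPM, high). In the KO group, replicate 3 stood apart for Pfkfb1 (39.9 CPM, high) and Pdk1 (65.6 CPM, high), and replicate 1 for Gbe1 (72.1 CPM, low).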

How the results depend on the processing

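No count of the 37 genes called higher differed from 0 in any alternative run, and the count called lower ranged from 0 to 3 when each library was left out, the 3 being without WT replicate 3. Over all genes the count called higher (340) was 613 with DESeq2, 215 with only the 4-digit animals and 151 to 710 with a library left out. The count called lower (201) was 328 without a low-count filter, 495 with DESeq2, 308 with the number series as covariate and 71 to 534 with a library left out. WT replicate 2 gave the lowest and WT replicate 3 the highest when left out, in both directions. Related genes called higher (2) were 4 with DESeq2, 1 with limma-voom and 1 to 8 with a library left out, and those called lower (3) were 1 with only the 4-digit animals and 1 to 5 with a library left out.

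Between the number series, members called higher (1) were 2 without a filter, 2 with DESeq2 and 0 to 2 with a library left out, and members called lower (3) were 5 without a filter and 0 to 4. All genes higher (210) were 546 without a filter, 393 with DESeq2 and 31 to 250. All genes lower (143) were 352, 267 and 25 to 149. The lowest counts over all genes were those without WT replicate 3.

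Of the log2 fold changes near 0, these changed sign: with upper quartile scaling Gckr 0.019, Hk2 0.0086, G6pc 0.011 and Slc37a4 0.011; with the stricter filter Gckr 0.0017; with limma-voom G6pc 0.021; with the number series as covariate Pck1 −0.040, Slc37a4 0.10 and Ppp1r3b 0.11; and with only the 4-digit animals Pfkp −0.15, Pkm −0.14, Pck2 −0.10 and Ppp1r3b 0.025. With a library left out the ranges that crossed 0 were Gckr −0.082 to 0.058, Hk2 −0.27 to 0.18, Pfkp −0.039 to 0.13, Gapdh −0.37 to 0.035, Pkm −0.084 to 0.14, Pcx −0.043 to 0.23, Pck1 −0.084 to 0.39, G6pc −0.16 to 0.21, Slc37a4 −0.13 to 0.054, Pygl −0.19 to 0.0073, Ppp1r3b −0.25 to 0.047, Ppp1r3c −0.25 to 0.17, Insr −0.10 to 0.020, Irs2 −0.44 to 0.083 and Akt2 −0.066 to 0.14. None of these was called. The cause of these shifts was not tested.

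The labels give no pairing of livers by replicate number. Deviations of same-numbered livers correlated over genes at 0.03, 0.03, 0.12 and −0.15, which shows no strong shared deviation but cannot exclude a pairing. With a replicate block 0 of the 37 genes were called, 2 related genes were called higher and 3 lower, and all genes were 353 higher and 211 lower. The block turned Hk2 to 0.026, G6pc to 0.022 and Slc37a4 to 0.00019, and ended the call of Igf1r.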
